A study of Mus musculus with 13 samples.

Results

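The vacuolar ATPase (V-ATPase) is the proton pump that acidifies lysosomes, endosomes and secretory vesicles. Its cytosolic V1 sector hydrolyses ATP, and its membrane V0 sector carries the protons. In V1, the A and B subunits form the head that binds and hydrolyses ATP, the D and F subunits form the central rotor, the E and G subunits form the peripheral stalks, and the C and H subunits link the stalks to V0. The whole pump on the lysosome also takes part in amino acid sensing by mTORC1, and V1 can come off V0 and go back on. The genes described here are the 8 genes Atp6v1a, Atp6v1b2, Atp6v1c1, Atp6v1d, Atp6v1e1, Atp6v1f, Atp6v1g1 and Atp6v1h, of 18939 genes in the count tables and 49686 in the FPKM table. They were chosen by name, with their CPM and FPKM in all 4 groups in view, so fold changes and adjusted p-values of these genes are given as a description, and their number is no evidence about the family. All 8 passed the filter on low counts in every comparison.

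Mouse oocytes were injected with FBL–GFP mRNA, which marks the nucleolus, held at the germinal vesicle (GV) stage with Cilostamide for 6 h, and sorted by the nucleolus pattern into non-surrounded nucleolus (NSN) and surrounded nucleolus (SN) oocytes. MII oocytes were those that reached metaphase II in culture after release from Cilostamide, so they are the members of each type that matured. Single oocytes without zona gave 13 libraries: 3 SN GV, 3 NSN GV, 4 SN-MII and 3 NSN-MII. The females were C57BL/6, 3 to 4 weeks old and primed with PMSG for 48 h. Injection and Cilostamide were shared by every group, and no uninjected oocyte is among them. Release and the culture after it belonged to the MII oocytes only, so their effects cannot be told apart from the stage. Nothing states that the oocytes of a group came from separate females, so p-values measure the spread between these oocytes. cDNA was made by SMART-seq2, in which poly(A) tails prime the reverse transcription and PCR follows, so a value is a share of the polyadenylated mRNA captured, not an amount per oocyte.

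Total counts per library lay between 7140404 and 8846297. All 10 oocyte markers (such as Gdf9, Bmp15, Zp3 and Mos) were detected in every group. Their summed level in CPM (counts scaled to library size) was 21475 to 23682 in SN GV and 23201 to 29015 in NSN GV. It was 21252 to 24671 in SN-MII and lowest in NSN-MII oocytes, at 17996 to 19034. Single markers varied more, such as Zp3 at 65.9 to 4681 CPM. The part of these levels in the type differences was not tested. Of 13 cumulus and granulosa cell genes, 3 (Foxl2, Lhcgr and Ptx3) were at 0 in all libraries, and Amh had at most 3 counts. Cyp19a1, Nr5a2 (54 to 176 counts) and Kitl (13 to 113 counts) were found in every library. Inha and Has2 reached 37 and 38 counts. The summed level of those 13 genes was 60.9 to 91.3 CPM in SN GV, 64.6 to 73.9 CPM in NSN GV, 101 to 130 CPM in SN-MII and 98.7 to 187 CPM in NSN-MII oocytes. Most of it was Cyp19a1, at 37.8 to 158 CPM. This level was higher at MII than at GV, and its part in the stage differences was not tested. Detected genes were fewest in NSN-MII replicate 3, at 11593, against up to 13342 in others. Atp6v1b2, Atp6v1e1 and Atp6v1h overlap genes on the opposite strand (Slc18a1, Slc25a18 and Rgs20), and no strand-specific step is named, so reads from such partners cannot be told apart.

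The 3′ ends of the 8 mRNAs are shown first, because oocytes store and remove maternal mRNAs largely through sequences near the poly(A) site and the libraries were primed on the tail. For each gene, 30 bases of the 3′ UTR, in the last exon of its main GENCODE M21 transcript (GRCm38, which is mm10), are printed 5′ to 3′ on the gene's strand. Capitals mark the last polyadenylation hexamer (AATAAA, or else ATTAAA) in the final 100 bases. In Atp6v1d that hexamer starts only 8 bases from the transcript end, and another AATAAA, left in lower case, opens the same 30 bases. Which of them serves as the signal was not tested.
Atp6v1a (chr16:44085407-44085436, minus): aaatctatgaaaAATAAAaagtggatttaa
Atp6v1b2 (chr8:69113673-69113702, plus): gttataaatgaaAATAAAtgttaaattaaa
Atp6v1c1 (chr15:38692413-38692442, plus): ggaccagttttgAATAAAgtgtagcaaaac
Atp6v1h (chr1:5162496-5162525, plus): tcatttatttcaAATAAAaattgggagaag
Atp6v1d (chr12:78840725-78840754, minus): aataaacaggactatctatgccAATAAAgg
Atp6v1e1 (chr6:120795250-120795279, minus): tattctttatttATTAAAacagagggctta
Atp6v1f (chr6:29470477-29470506, plus): atcgttgttgatATTAAAggaattattctc
Atp6v1g1 (chr4:63550721-63550750, plus, no capitals): ttggtaatacaaagtatatcttgacccaga

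The AATAAA form was present in Atp6v1a, Atp6v1b2, Atp6v1c1, Atp6v1h and Atp6v1d. Atp6v1e1 and Atp6v1f had ATTAAA alone, and Atp6v1g1 had neither hexamer in its final 100 bases. Each result rests on the end of 1 annotated transcript per gene, and other ends were not read. The annotated Atp6v1e1 gene reaches further 3′, to base 120794305, than its main transcript, which ends at 120795244. Of 10604 tested genes with a 3′ UTR of at least 100 bases, 81.8% had one of the hexamers there. A cytoplasmic polyadenylation element (CPE), searched as TTTTAT or TTTTAAT on the transcript strand in the same window, was found in Atp6v1b2 alone, shown in capitals.
Atp6v1b2 CPE (chr8:69113636-69113665, plus): gcatgattataTTTTAATgtagaaaatgtg
A CPE is the element through which stored mRNAs gain a tail during maturation, and 20.2% of the same genes held one of these forms in this window. A match is a description of letters and not a tested site.

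The stage comparison asks how the V1 mRNAs changed as oocytes went from GV to MII. They did not move together: mRNAs of the head and of the linking subunit H were higher at MII, and mRNAs of the rotor and of the peripheral stalks were much lower. The linking subunit gene Atp6v1c1 was called higher too, but its stages overlapped, the same model did not call it within either type, and the call was lost in 13 alternative fits. In the quasi-likelihood model of edgeR, adjusted by Benjamini-Hochberg over 11375 genes, 4 of the 8 were called higher at MII and 4 lower, beside a background of 68.6% of all genes called (31.7% higher and 36.9% lower). CPM of the GV and MII libraries did not overlap for 7 of the 8, beside 47.4% of all genes. The median log2 fold change of the 8 was -0.82, beside -0.10 over all genes, with the 8 spread from -4.14 to 1.58.

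**Figure D1:**
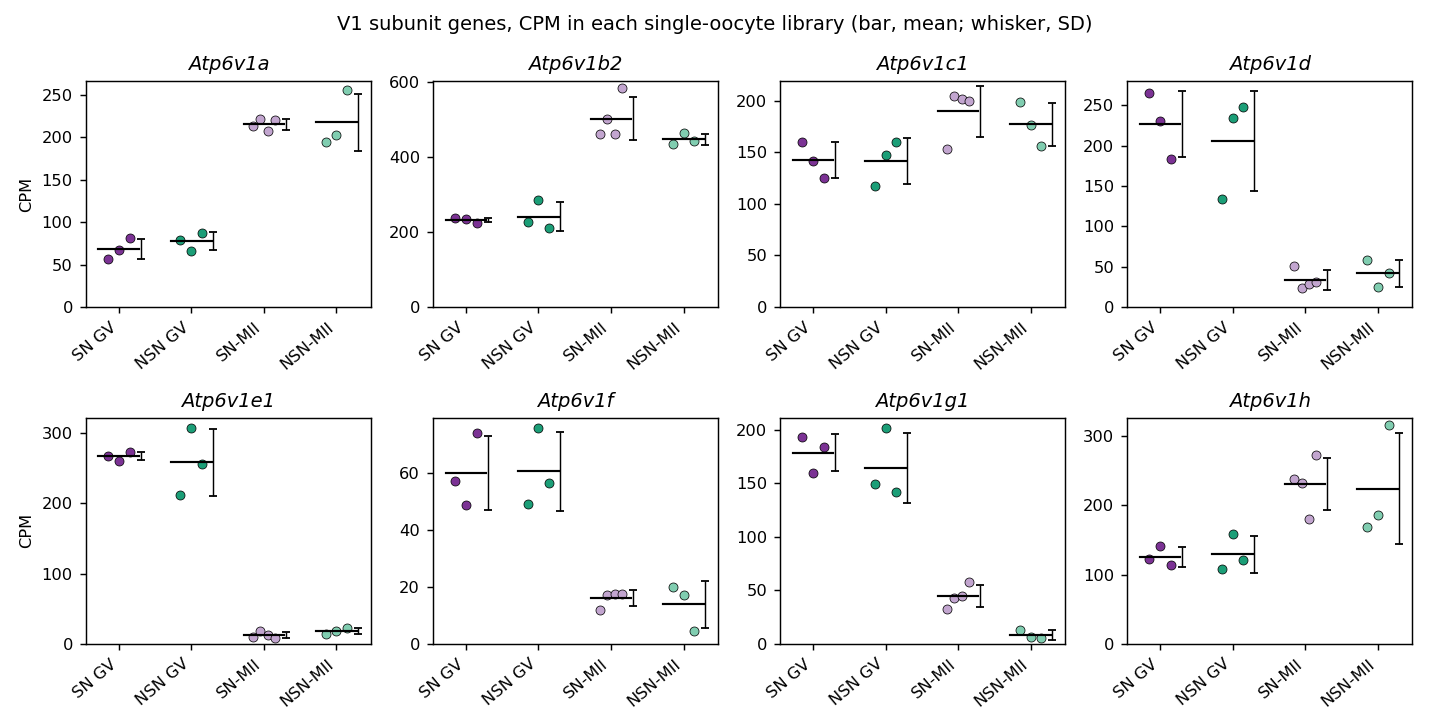
CPM of the 8 V1 subunit genes in each of the 13 single-oocyte libraries, by group, on linear axes that start at 0; points are libraries, bars are means and whiskers are SD. Atp6v1a, Atp6v1b2 and Atp6v1h sit higher in all MII libraries, Atp6v1d, Atp6v1e1, Atp6v1f and Atp6v1g1 sit lower, and Atp6v1g1 is lowest in NSN-MII, at 5.07 to 13.1 CPM.

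Atp6v1a (ENSMUSG00000052459, chr16:44085402-44139705) encodes the catalytic A subunit. It had 56.9, 66.7 and 80.7 CPM in the SN GV libraries and 79.1, 65.9 and 87.0 CPM in the NSN GV libraries. At MII it had 213, 221, 207 and 220 CPM in SN and 194, 202 and 256 CPM in NSN oocytes. The lowest MII library was above the highest GV library, and the fitted increase was 2.98-fold (log2 fold change 1.58, SE 0.14, adjusted p = 5.39e-08).

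Atp6v1b2 (ENSMUSG00000006273, chr8:69088646-69113711) encodes the B subunit of most tissues, which shares the nucleotide sites with A. It had 237, 234 and 225 CPM in SN GV, 226, 285 and 212 CPM in NSN GV, 463, 501, 461 and 585 CPM in SN-MII, and 435, 465 and 445 CPM in NSN-MII. Every MII library was above every GV library, by 2.01-fold in the fit (log2 fold change 1.004, SE 0.13, adjusted p = 2.29e-06).

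Atp6v1h (ENSMUSG00000033793, chr1:5070018-5162529) encodes the H subunit, which sits at the V1–V0 interface and keeps free V1 from hydrolysing ATP. Its CPM was 123, 141 and 113 in SN GV, 108, 158 and 121 in NSN GV, 239, 232, 180 and 272 in SN-MII, and 169, 186 and 316 in NSN-MII. The stages did not overlap, and the NSN-MII libraries were the most spread of the 4 groups (SD 80.2 CPM). The fitted increase was 1.78-fold (log2 fold change 0.83, SE 0.17, adjusted p = 0.000422). In NSN oocytes alone the log2 fold change of 0.79 (adjusted p = 0.0131) became 0.44 (adjusted p = 0.0845) without NSN-MII replicate 3, 0.68 (adjusted p = 0.0557) without NSN GV replicate 1 and 0.47 (adjusted p = 0.0589) with library totals as the only scaling. Fitted on the NSN libraries alone it was again 0.79, and not called (adjusted p = 0.0608).

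Atp6v1c1 (ENSMUSG00000022295, chr15:38661933-38692446) encodes the C subunit, which leaves the complex when V1 detaches. It had 160, 141 and 125 CPM in SN GV, 117, 148 and 160 CPM in NSN GV, 153, 205, 201 and 199 CPM in SN-MII, and 198, 176 and 156 CPM in NSN-MII. Here the stages overlapped, since the lowest library of each MII type was below the highest GV library. The log2 fold change was 0.37 (SE 0.14, adjusted p = 0.0269, 95% interval 0.07 to 0.66), and it was not called within SN (adjusted p = 0.0750) or within NSN oocytes (adjusted p = 0.188). Fitted on the SN libraries alone it was called, at 0.42 (adjusted p = 0.0306), and so it was in SN oocytes without SN-MII replicate 1 (0.51, adjusted p = 0.0440). With library totals as the only scaling it was 0.09 (adjusted p = 0.583), and the call was lost without SN GV replicate 2 or 3, NSN GV replicate 1, SN-MII replicate 2 or NSN-MII replicate 1 (adjusted p = 0.0514 to 0.0742). In 8 of 13 libraries the deposited count of Atp6v1c1 was not a whole number, so some of its reads were shared with another gene, while the other 7 genes had whole counts in all libraries.

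The rotor and stalk genes went the other way. Atp6v1e1 (ENSMUSG00000019210, chr6:120794305-120822793) encodes the ubiquitous E subunit of the peripheral stalks. It had 268, 261 and 273 CPM in SN GV and 212, 307 and 256 CPM in NSN GV, and then 10.1, 17.5, 13.01 and 8.18 CPM in SN-MII and 14.4, 17.6 and 23.0 CPM in NSN-MII. Over both types this was the largest stage difference among the 8, 17.6-fold lower at MII (log2 fold change -4.14, SE 0.20, adjusted p = 5.57e-11), and counts were still 60 to 142 per MII library.

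Atp6v1g1 (ENSMUSG00000039105, chr4:63544772-63550750) encodes the G subunit that pairs with E in each stalk. Its CPM was 193, 159 and 184 in SN GV and 149, 201 and 142 in NSN GV, against 32.5, 42.4, 44.7 and 57.7 in SN-MII and 13.1, 5.81 and 5.07 in NSN-MII. Over both types it was 9.04-fold lower at MII (log2 fold change -3.18, SE 0.22, adjusted p = 2.52e-09).

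Atp6v1d (ENSMUSG00000021114, chr12:78840725-78861638) encodes the D subunit, the rotor's shaft. It had 265, 230 and 184 CPM in SN GV, 134, 235 and 248 CPM in NSN GV, 51.2, 23.2, 28.7 and 31.1 CPM in SN-MII, and 58.1, 24.99 and 41.9 CPM in NSN-MII. The stages were far apart, 5.77-fold in the fit (log2 fold change -2.53, SE 0.24, adjusted p = 8.89e-08).

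Atp6v1f (ENSMUSG00000004285, chr6:29467718-29470512) encodes the small F subunit at the foot of the rotor. It had 57.4, 48.9 and 74.2 CPM in SN GV, 49.3, 76.1 and 56.8 CPM in NSN GV, 11.8, 17.3, 17.6 and 17.4 CPM in SN-MII, and 20.1, 17.1 and 4.56 CPM in NSN-MII. It was 4.02-fold lower at MII (log2 fold change -2.01, SE 0.27, adjusted p = 5.36e-06). The lowest value, from 27 counts, was in NSN-MII replicate 3, and without it the log2 fold change in NSN oocytes went from -2.11 to -1.72 and stayed called (adjusted p = 0.000235).

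Within SN oocytes 7 of the 8 genes were called, 3 higher and 4 lower, beside 56.3% of all genes (25.1% higher and 31.2% lower). With the SN libraries alone, or without SN-MII replicate 1, Atp6v1c1 made it 4 higher. Within NSN oocytes 3 were called higher and 4 lower, beside 56.3% (25.4% higher and 30.8% lower). Only 2 were higher, without Atp6v1h, with library totals as the only scaling, with the NSN libraries alone, and without NSN GV replicate 1 or NSN-MII replicate 3. These contrasts come from the same libraries as the joint one. The log2 fold changes in SN and NSN oocytes were 1.66 and 1.49 for Atp6v1a, 1.11 and 0.90 for Atp6v1b2, and 0.87 and 0.79 for Atp6v1h. For the genes that were lower they were -2.75 and -2.30 for Atp6v1d, -4.45 and -3.82 for Atp6v1e1, and -1.90 and -2.11 for Atp6v1f. Atp6v1g1 stood out, at -2.01 in SN and -4.34 in NSN oocytes, where it was below Atp6v1e1, and the test of that difference is given with the type comparison.

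**Figure D2:**
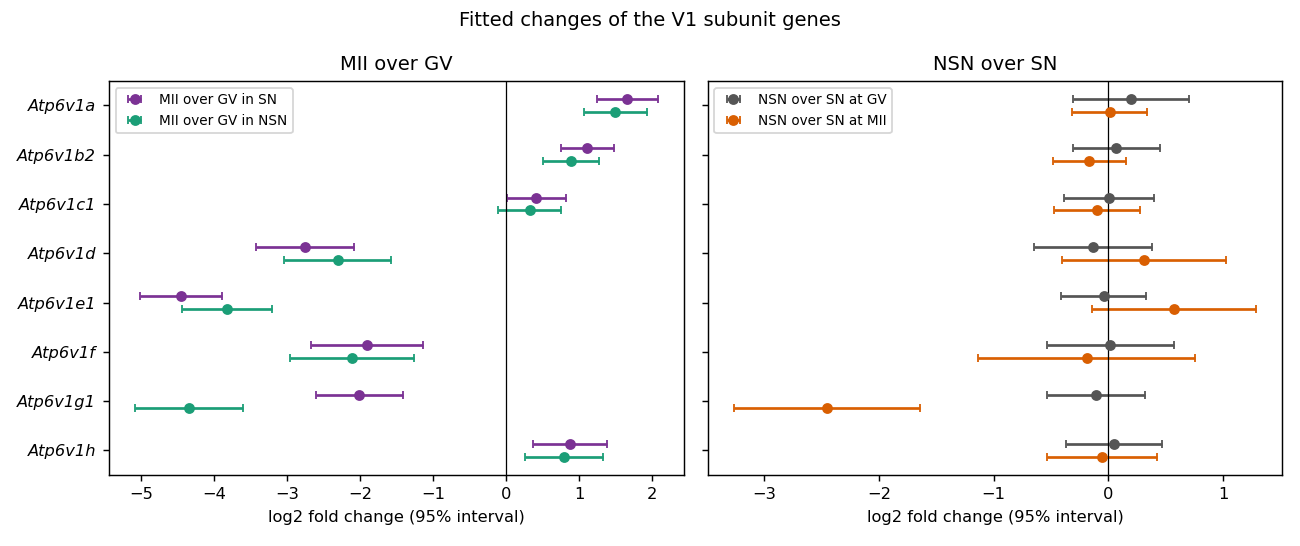
Fitted log2 fold changes of the 8 genes with 95% intervals, on the left MII over GV within SN and within NSN oocytes, and on the right NSN over SN at GV and at MII. The intervals of the 2 types overlap for every gene on the left but Atp6v1g1, and on the right only Atp6v1g1 at MII, at -2.45, lies away from 0.

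Levels between genes were compared per transcript length, in FPKM. At GV, mean FPKM ± SD (n = 6) ran from Atp6v1e1 (214 ± 17.0) through Atp6v1g1 (167 ± 21.5), Atp6v1d (118 ± 27.3), Atp6v1f (109 ± 21.0), Atp6v1b2 (82.8 ± 8.43), Atp6v1c1 (71.9 ± 5.84) and Atp6v1h (68.9 ± 7.91) to Atp6v1a (19.1 ± 3.41). Only the first and the last were clear of their neighbours. Atp6v1e1 in its lowest library was above Atp6v1g1 in its highest, and Atp6v1a was below all others. Between them, each gene overlapped the next in the order. At MII the order (n = 7) was Atp6v1b2 (151 ± 14.8), Atp6v1h (110 ± 17.3), Atp6v1c1 (83.7 ± 14.01), Atp6v1a (49.6 ± 3.33), Atp6v1g1 (25.03 ± 17.5), Atp6v1f (25.02 ± 9.52), Atp6v1e1 (10.7 ± 3.59) and Atp6v1d (8.93 ± 3.64). Of the neighbours at MII, only Atp6v1c1 and Atp6v1a did not overlap. The place of Atp6v1g1 depended on the type: it came next after Atp6v1a in SN-MII (38.3 ± 7.42, n = 4) and the lowest of the 8 in NSN-MII (7.38 ± 4.67, n = 3), where it overlapped Atp6v1d (10.2 ± 4.59).

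The order was largely turned round, with a Spearman rho of -0.67 between the 8 mean levels at GV and at MII. In every GV library Atp6v1e1 was the highest and Atp6v1a the lowest of the 8, with an FPKM ratio of E1 to A between 8.63 and 15.3. In the MII libraries that ratio was between 0.116 and 0.296. The genes that were called higher stayed nearer to each other in FPKM, with lower ratios to A at MII. B2 was 3.32 to 6.05 times A at GV and 2.44 to 3.89 times at MII, H was 2.90 to 5.28 and 1.79 to 2.75 times, and C1 was 2.87 to 5.28 and 1.22 to 2.03 times. The summed FPKM of the 8 genes was 793 to 943 in GV and 407 to 515 in MII libraries, whereas their summed CPM, which weights long mRNAs more, was 1075 to 1476 and 1095 to 1390.

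**Figure D3:**
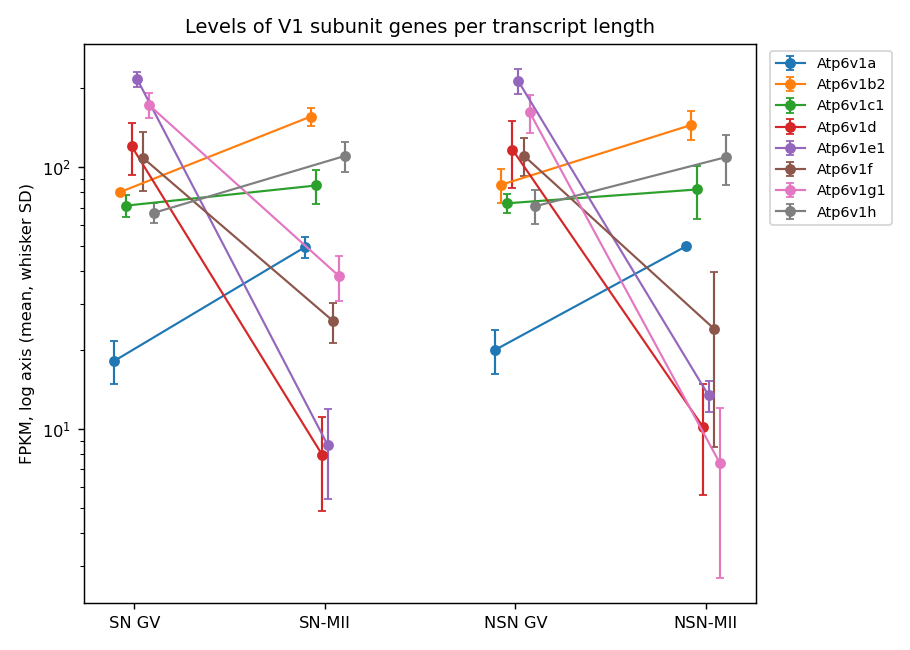
Mean FPKM of the 8 genes in each group on a log axis, with SD whiskers; lines join GV and MII within SN and within NSN oocytes. Atp6v1e1 falls from a mean of 214 FPKM at GV to 10.7 at MII, while Atp6v1a goes from 19.1 to 49.6.

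Counts and FPKM kept a fixed relation between the stages for 7 of the 8 genes, but not for Atp6v1d. The count of a gene divided by its FPKM, relative to the median gene of the library, follows the transcript length that RSEM used, which is weighted by the isoforms it found. For Atp6v1d this was 0.692 to 0.862 in GV and 1.59 to 1.67 in MII libraries, with no overlap. The MII-to-GV ratio of 2.04 was at percentile 99.5 of 5077 genes, and for the other 7 genes it lay between 0.993 and 1.02. So the 5.77-fold difference of Atp6v1d in counts sat beside mean FPKM of 118 and 8.93. No isoform values were used here, and which transcripts of Atp6v1d were read at each stage was not tested.

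**Figure D4:**
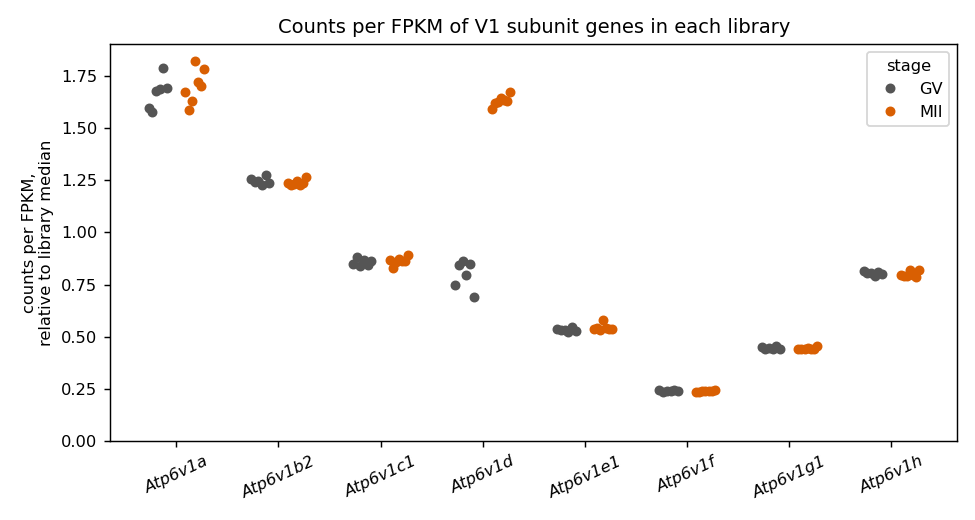
Counts per FPKM of each gene in each library, relative to the library's median gene, for GV (grey) and MII (orange), on an axis from 0. Atp6v1d is the one gene whose points separate, at 0.692 to 0.862 in GV and 1.59 to 1.67 in MII.

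The transcripts differ in length. The main GENCODE transcripts have 4234 bases for Atp6v1a, 3667 for Atp6v1d, 2825 for Atp6v1b2, 2071 for Atp6v1c1, 2049 for Atp6v1h, 1312 for Atp6v1e1, 1135 for Atp6v1g1 and 703 for Atp6v1f. The short Atp6v1e1, Atp6v1g1 and Atp6v1f, at percentiles 10.8, 7.68 and 1.75 of transcript length, were all lower at MII. So was Atp6v1d, whose main transcript is long, at percentile 61.6. Counts per FPKM of Atp6v1d differed between the stages, so this length, and the 3′ end shown for it, may not hold for what was read at GV. Over the 11233 tested genes with a matched transcript, the median log2 fold change between stages went from -1.41 in the shortest of 4 equal classes of length through -0.34 and 0.15 to 0.68 in the longest. Against the median of their own class, Atp6v1e1 (-4.14), Atp6v1g1 (-3.18) and Atp6v1f (-2.01) were lower, Atp6v1d (-2.53) was lower than its class at 0.15, and Atp6v1a (1.58), of the same class, was higher. The part of length in these differences was not tested.

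The hexamers of the 3′ ends also went with the stage change over all genes. Of the 10604 genes, 7075 had AATAAA in the final 100 bases, 1595 had ATTAAA alone and 1934 had neither. The median log2 fold change was 0.16 with AATAAA, -0.19 with ATTAAA alone and -0.73 with neither. The 4 genes that were called higher all had AATAAA, among them Atp6v1c1, whose call was lost in many fits. Of the 4 that were lower Atp6v1d had it, Atp6v1e1 and Atp6v1f had ATTAAA and Atp6v1g1 had neither. Genes with a CPE had a median of 0.65 and those without -0.24, and Atp6v1b2, the gene with a CPE, was at 1.004. The part of hexamers and CPE in the stage differences was not tested, and these classes were not separated from transcript length. Promoters of 300 bases (RefSeq, GRCm38.p6) were at hand for Atp6v1a, Atp6v1d, Atp6v1e1 and Atp6v1f. CACGTG, the core of the element that the lysosomal regulators TFEB and TFE3 bind and the same on both strands, was in that of Atp6v1a alone, 131 bases before the start, and in 7.15% of 32851 promoters. Tfeb had at most 1 count in any library, and Tfe3 had 1181 to 1510 counts at GV and 661 to 1112 at MII. Whether either protein binds there was not tested. The core is shown for that gene with the flanking bases of the longer element in capitals as well. The stretch in capitals was in 0.974% of all promoters. The full element, which is longer still, was in none of the promoters of these genes.
Atp6v1a promoter (chr16:44139210-44139509, minus): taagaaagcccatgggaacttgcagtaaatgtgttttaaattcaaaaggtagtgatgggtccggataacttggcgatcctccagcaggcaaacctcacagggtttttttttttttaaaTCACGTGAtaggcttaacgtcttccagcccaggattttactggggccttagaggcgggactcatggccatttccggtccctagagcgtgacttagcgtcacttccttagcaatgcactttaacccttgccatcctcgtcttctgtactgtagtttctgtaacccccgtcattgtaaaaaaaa

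The type comparison asks whether NSN and SN oocytes differed in V1 mRNAs at each stage. At GV none of the 8 was called by edgeR, beside a background of 0% of 10839 genes, of which 190 had an unadjusted p under 0.05 while DESeq2 called 0 and limma on log2(FPKM + 1) called 1. The log2 fold changes of NSN over SN lay between -0.13 (Atp6v1d) and 0.20 (Atp6v1a), and the libraries of the types overlapped for all 8, beside 6.03% of genes whose libraries did not. The 95% intervals of these differences reached from -0.65 at the lowest (Atp6v1d) to 0.71 at the highest (Atp6v1a). For Atp6v1e1 the interval was -0.41 to 0.33 and for Atp6v1b2 it was -0.31 to 0.45.

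At MII, Atp6v1g1 was the 1 gene of the 8 that was called, beside a background of 0.259% of 10028 genes (0.00997% higher and 0.249% lower). The 3 NSN-MII libraries had 110, 47 and 30 counts of it and the 4 SN-MII libraries had 245, 330, 340 and 423, so the types did not overlap, which held for 10.2% of all genes. It was 5.48-fold lower in NSN-MII (log2 fold change -2.45, SE 0.37, adjusted p = 0.0273). FPKM gave 12.7, 5.50 and 3.94 in NSN-MII against 28.8, 38.1, 39.3 and 46.9 in SN-MII. The call was lost without SN-MII replicate 2 (adjusted p = 0.109), 3 (0.0984) or 4 (0.0949) or without NSN-MII replicate 2 (0.162), with log2 fold changes from -2.47 to -2.27. It was also lost with library totals as the only scaling (adjusted p = 0.0627) and by limma on FPKM (adjusted p = 0.0797 to 0.172), and DESeq2 gave an adjusted p of 9.09e-09.

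The other 7 genes were not called at MII. Atp6v1e1, the stalk partner of G1, had a log2 fold change of 0.57 (95% interval -0.14 to 1.29, adjusted p = 0.646), and the rotor genes Atp6v1d and Atp6v1f had 0.31 (-0.41 to 1.03) and -0.19 (-1.13 to 0.76). Without NSN-MII replicate 3 Atp6v1f was at 0.22 (adjusted p = 0.746). The intervals of the genes that were higher at MII were narrower: Atp6v1a was at 0.01 (-0.32 to 0.34), Atp6v1b2 at -0.17 (-0.48 to 0.15), Atp6v1c1 at -0.10 (-0.47 to 0.28) and Atp6v1h at -0.05 (-0.53 to 0.43).

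Whether the NSN over SN difference itself changed between the stages was tested with an interaction term in the fit of 13 libraries. For Atp6v1g1 it was -2.33 on the log2 scale (SE 0.43, unadjusted p = 4.77e-05 from edgeR's quasi-likelihood model) and did not pass the adjustment (adjusted p = 0.134), in a test that called 0.0176% of 11375 genes. DESeq2 gave an adjusted p of 0.000223, edgeR with no filter on low counts 0.00993, and edgeR without NSN-MII replicate 1 0.0113. None of the other 7 genes was called, and the next in size was Atp6v1e1 at 0.63 (adjusted p = 0.9996).

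The G subunit has other isoforms, which were low here. Atp6v1g2, the isoform of neurons, had at most 7 counts in 12 libraries and 37 counts in NSN GV replicate 2, and 0 in all MII libraries. Atp6v1g3, a kidney isoform, was at 0 in all 13 libraries. Of the isoforms of other subunits, Atp6v1b1 (kidney and inner ear) had 4 counts in 1 library and none elsewhere, and Atp6v1e2 (testis) had at most 5 counts. Atp6v1c2 had 4 to 34 counts and was the only one of these 5 genes that could be tested, with a log2 fold change of 0.49 between stages (adjusted p = 0.407) and -0.44 between types at MII (adjusted p = 0.898).

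The V0 sector and its accessory proteins were split between the stages too. Of 12 genes on that list 10 were tested, of which 3 were called higher and 4 lower at MII. Their median log2 fold change was 0.08, and the background was the same 68.6%. Within SN oocytes 3 were called higher and 3 lower, and within NSN oocytes 2 and 4, beside 56.3% of all genes called in each. Atp6v0c, the proteolipid of the proton-carrying ring, was at 451 to 714 CPM in GV and 31.1 to 61.5 CPM in MII libraries, 14.1-fold lower (log2 fold change -3.81, adjusted p = 5.54e-11). Atp6v0d1, which joins the ring to the rotor, was at -1.50, Atp6v0e at -0.92 and Atp6v0b, another ring proteolipid, at -0.79 (adjusted p = 0.000571 at most). For Atp6v0e the log2 fold change was -1.56 within NSN oocytes (adjusted p = 0.000260) and -0.29 within SN oocytes, where it was not called (adjusted p = 0.370), and the difference between the types did not pass the adjustment (adjusted p = 0.621). Atp6v0a2, an isoform of the subunit that forms the proton path with the ring, was higher at 1.11. So were Atp6v0a4 at 0.84 and the accessory Atp6ap2 at 0.62 (adjusted p = 0.00923 at most, edgeR). CPM of the GV and MII libraries overlapped for Atp6v0a4, Atp6ap2, Atp6v0b and Atp6v0e. Atp6v0a1 (0.29), Atp6ap1 (0.19) and Atp6v0e2 (-0.03) were not called, and Tcirg1 and Atp6v0d2 had too few counts to test, at most 6 and 11 per library.

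Assembly genes gave 5 higher and 3 lower of 9 tested, with a median of 0.88, beside 31.7% and 36.9% of all genes. Within SN oocytes 3 were called higher and 3 lower, and the same within NSN oocytes, beside 56.3% of all genes called in each. Dmxl1 (1.08), Dmxl2 (1.21) and Wdr7 (0.91), of the complex that puts V1 back on V0, were higher. The stages of Wdr7 overlapped, at 3.55 to 6.47 CPM in GV and 3.95 to 14.9 CPM in MII libraries. Rogdi, of the same complex, was 9.17-fold lower (log2 fold change -3.20, adjusted p = 3.40e-08, edgeR), from 20.1 to 34.0 CPM at GV to 1.46 to 5.36 CPM at MII. Of the factors that build V0 in the endoplasmic reticulum, Vma21 was higher at 0.88, and Tmem199 and Ccdc115 were lower at -1.32 and -1.42. Ncoa7, whose protein binds V1, was higher at 1.45, though its stages overlapped (1.79 to 6.73 CPM at GV and 6.55 to 11.2 CPM at MII). Its relative Oxr1 was not called (0.13, adjusted p = 0.782, edgeR).

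**Figure D5:**
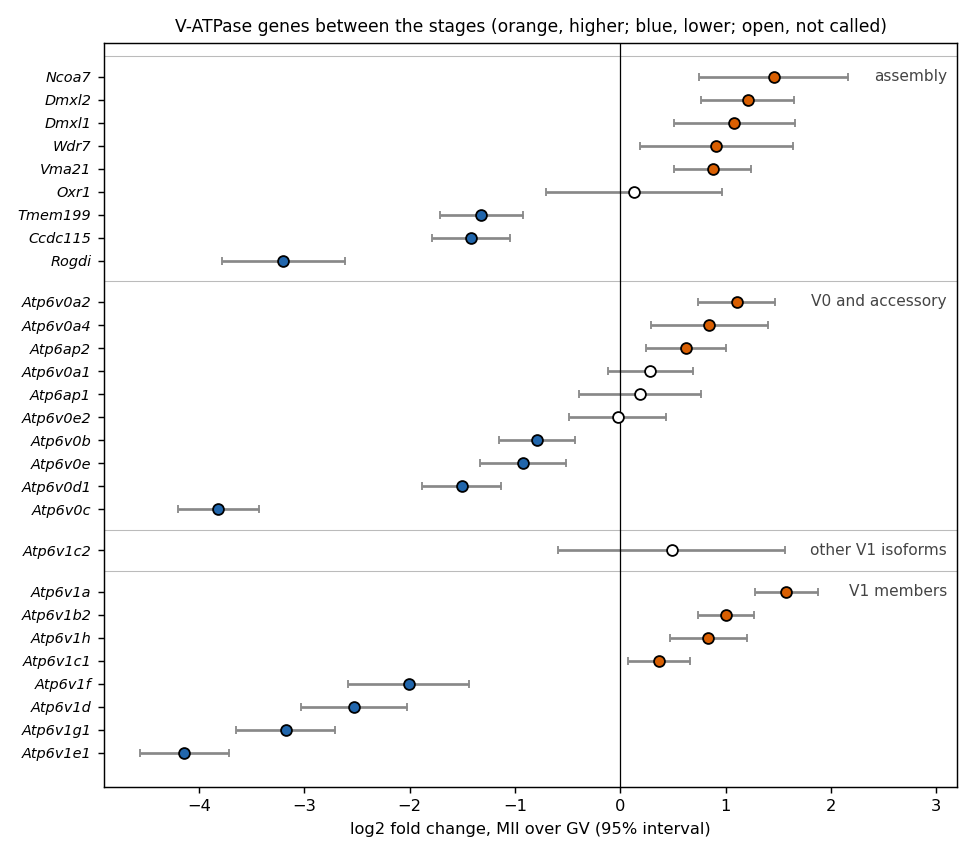
Log2 fold change from GV to MII, with 95% intervals, for every tested V-ATPase gene, by list; orange points were called higher, blue points lower and open points not called. Each list with more than 1 gene holds genes on both sides of 0, from Atp6v1e1 at -4.14 to Atp6v1a at 1.58.

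At MII, 1 V0 gene was called between the types beside Atp6v1g1. Atp6v0e, a small membrane subunit, had 37.1, 36.4 and 44.9 CPM in NSN-MII against 66.6, 98.0, 119 and 98.2 CPM in SN-MII, and its log2 fold change was -1.28 (SE 0.22, adjusted p = 0.0450). That call was lost under DESeq2's size factors, library totals, the replicate block and at least 5 of the 7 fits that left out a library. No assembly gene was called at MII, and no gene of either list at GV.

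Genes around the pump on the lysosome were mixed as well. Their counts stand beside the same 68.6% of all genes called, 31.7% higher and 36.9% lower. Of 14 tested genes of lysosomal mTORC1 signalling, 7 were higher and 5 lower at MII (median 0.82), with the largest rise in Fnip1 (1.72, adjusted p = 6.23e-05), a partner of folliculin, and the largest fall in Lamtor4 (-5.24, adjusted p = 7.76e-09), a subunit of the Ragulator scaffold that contacts V1. Of 19 tested lysosome genes, 5 were higher and 7 lower (median -0.25), with the largest rise in Lamp2 (1.64, adjusted p = 3.39e-05), a membrane protein, and the largest fall in Man2b1 (-2.94, adjusted p = 6.38e-05), a mannosidase. None of the genes of these lists that were tested was called between NSN and SN oocytes at either stage.

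The gene whose log2 CPM was most like each subunit gene over the 13 libraries was found by Pearson's r. These were Timm17a for Atp6v1e1 (0.997), Rex1bd for Atp6v1f (0.992), H2afy2 for Atp6v1g1 (0.991), Sdc1 for Atp6v1b2 (0.988), Igf2bp3 for Atp6v1a (0.986), Dppa4 for Atp6v1d (0.986), Cep70 for Atp6v1h (0.968) and Mapre2 for Atp6v1c1 (0.928). The points share the stage, which separates them, and no other V1 gene was the most alike to any of the 8. Once group means were taken out, the strongest relations within the family were between Atp6v1f and Atp6v1g1 (r = 0.70) and between Atp6v1f and Atp6v1h (r = -0.63), given as a description over 13 libraries of which NSN-MII replicate 3 is extreme for both Atp6v1f and Atp6v1h.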

How the data were processed

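RNA-seq was done on 13 single oocytes, grouped by the deposited sample titles. According to the sources used, the authors trimmed reads with Trim Galore 0.4.4, mapped them to mm10 with Bowtie2 2.3.5 and quantified RefSeq genes with RSEM 1.2.28. The expected counts, 1 table per stage, were deposited by the authors as RSEM estimates, in which a read with several possible genes is divided, and in the most affected library 16.6% of values were not whole. FPKM was also deposited by the authors, in 1 table, and is scaled by transcript length and library size. All columns were used, and no pair of libraries was identical.

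Expected counts were rounded. Genes were filtered with filterByExpr, scaled by TMM and tested with edgeR 4.0.16 (R 4.3.3), with Benjamini-Hochberg adjustment over all genes tested and a threshold of 0.05. Types were tested against each other stage by stage. Stage contrasts and the interaction came from 1 fit of 4 groups and 13 libraries, and the joint contrast is the mean of the MII groups less that of the GV groups. CPM used the TMM factors of that fit. Alternatives were DESeq2 1.42.0, other scalings and filters, limma 3.58.1 on log2(FPKM + 1) and log2(FPKM + 0.1) (mean FPKM 1 or more, or unfiltered), a replicate block, other sets of libraries in the fit and leaving out each library. The edgeR step was also run on simulated counts with known changes, as a check of the code and not of the calls reported here. Transcripts and coordinates are from GENCODE M21, matched by symbol for 98.8% of tested genes, with the principal, then longest, coding transcript.

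The members and gene lists (V0 and accessory, assembly, mTORC1 signalling, lysosome, oocyte, cumulus and granulosa) were chosen with earlier results of these data known. Named are the 8 members, the other V1 isoform genes, the V0 and assembly genes, the largest called rise and fall of the remaining pathway lists, and the most alike gene of each member (log2 CPM, prior count 1). Tfeb and Tfe3 are named for the promoter element. Without molecular identifiers, counts are not molecules. The common biological coefficient of variation between oocytes was 0.364 over all genes of the fit of 13 libraries. The spread of the 8 members themselves was not compared with counting error.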

Additional observations from a re-analysis of the deposited data

Results flagged for a closer look

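Atp6v1c1 in SN-MII oocytes had 1 library far from the others: the first at 153 CPM and the remaining 3 at 199 to 205 CPM, a gap of 0.898 of the group's range. Without that library the log2 fold change from GV to MII in SN oocytes went from 0.41 (adjusted p = 0.0750, edgeR) to 0.51 (adjusted p = 0.0440). Atp6v1f showed the same library low, at 11.8 CPM against 17.3 to 17.6 CPM, a gap of 0.953 of the range. Its call between stages held with each library left out in turn. Both are above Dixon's 95% limit for 4 samples, which chance passes in about 1 of 20 groups, and 8 genes were examined in this group, the only one with 4 libraries.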

How the results depend on the processing

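The stage calls of Atp6v1a, Atp6v1b2, Atp6v1h, Atp6v1d, Atp6v1e1, Atp6v1f and Atp6v1g1 over both types held with the same direction under every alternative run, and that of Atp6v1c1 was lost in 13 fits. Its adjusted p over all alternatives was 0.0145 to 0.583. Library totals as the only scaling moved the median log2 fold change of all genes from -0.10 to -0.39 between stages, and the share of higher among called genes from 44.6% to 33.4% within SN oocytes (46.2% to 36.7% over both types). Limma with no filter gave 36.2% over both types.

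For NSN over SN at MII, the number of the 8 genes called was 1, and 0 with library totals only, with the replicate block and in the 3 limma fits, and it was 0 to 1 as each library was left out. The number of all genes called there went from 26 to 218 with DESeq2, 89 with no filter, 69 with all libraries in 1 fit, 16 with library totals and 2 to 4 in limma, with 2 to 233 as each library was left out. For the interaction the number of the 8 called was 0, but 1 with DESeq2 and 1 with no filter, and 0 to 1 as each library was left out. All genes called there numbered 2, but 46 with DESeq2, 6 with no filter, 1 to 4 in limma and 0 to 12 as each library was left out.

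Signs of small uncalled differences turned. For NSN over SN at GV, Atp6v1c1 was at 0.01, at -0.0010 with no filter and at -0.0060 with all libraries in 1 fit. As libraries were left out, the ranges at GV were -0.043 to 0.17 (Atp6v1b2), -0.069 to 0.093 (Atp6v1c1), -0.27 to 0.062 (Atp6v1d), -0.16 to 0.039 (Atp6v1e1), -0.15 to 0.22 (Atp6v1f), -0.25 to 0.0018 (Atp6v1g1) and -0.10 to 0.12 (Atp6v1h). At MII they were -0.11 to 0.080 (Atp6v1a), -0.022 to 0.59 (Atp6v1d), -0.55 to 0.22 (Atp6v1f) and -0.36 to 0.11 (Atp6v1h). In the interaction they were -0.21 to 0.013 (Atp6v1c1), -0.57 to 0.20 (Atp6v1f) and -0.42 to 0.093 (Atp6v1h). The causes were not tested.

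Over 18 same-numbered pairs of libraries the correlation of deviations was -0.40 to 0.20, over 0.1 in 2, and a library correlated best with its own number in 12 of 36 cases. Between NSN GV and NSN-MII the same-numbered pairs were at 0.17, 0.028 and 0.20, and between SN GV and NSN GV at -0.17, -0.13 and -0.40. With so few libraries per group, whether the replicate numbers pair any oocytes cannot be told from these values. With the replicate block the genes called at MII went from 26 to 2, Atp6v1g1 at MII had an adjusted p of 0.236, Atp6v1c1 between stages 0.0664, and the interaction of Atp6v1h was 0.0035.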
